A study of Homo sapiens with 6 samples.

Results

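The genes described here are the core autophagy machinery and the TFEB and mTORC1 genes that control it, 46 genes of the 19202 in the count table, chosen by a list of gene symbols drawn up with earlier results of these data known. All 46 were found in the table, each of them once. RNA sequencing compared sorafenib-resistant MHCC97H cells (3 libraries, titled SR) with control MHCC97H cells labelled sorafenib sensitive (3 libraries). MHCC97H is a highly metastatic human hepatocellular carcinoma line. Sorafenib blocks several kinases, among them RAF and the VEGF receptors, and is given in advanced liver cancer. The series title names PLEKHG5 and HDAC2 in sorafenib resistance, and the design sets transcripts of the resistant state against those of the sensitive state. How resistance was raised, at what dose, and whether the drug was present at harvest are not stated in the sources used here. Nor is it stated whether replicates came from separate cultures or whether the resistant cells were 1 clone, so the p-values describe library-to-library spread that may be technical.

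Autophagy encloses cytoplasm in a double membrane that fuses with the lysosome. The ULK1 kinase complex starts it, the Beclin 1 lipid kinase complexes mark the membrane, WIPI proteins read that mark, ATG2 and ATG9 proteins supply lipid, and a pair of ubiquitin-like systems attaches ATG8 proteins such as LC3 to the membrane, where cargo receptors bind them. mTORC1 on the lysosome holds the ULK1 complex and the transcription factors TFEB, TFE3 and MITF in check when nutrients are plentiful, and the TSC complex in turn restrains mTORC1 through RHEB. In liver cells this pathway is known for the turnover of mitochondria, lipid droplets and protein aggregates. Transcript levels do not measure autophagic flux or kinase activity.

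Libraries held 1913469 to 5345272 counts, the fewest in control replicate 1. Levels are CPM, each count set against its TMM-scaled library total, and the log2 fold change (log2FC) is that of resistant over control cells. A gene was called where its adjusted p was under 0.05 in edgeR's quasi-likelihood test, adjusted over 10804 tested genes. As to the labelled cell type, the keratins KRT8 and KRT18 were abundant, at 1099.5 ± 101 and 758 ± 72.6 CPM in resistant cells and at 1276 ± 154 and 809.9 ± 101 CPM in control cells (SD, n = 3 each), whereas the hepatocyte genes ALB and APOB were low (5.53 ± 3.50 and 8.08 ± 5.01 CPM in resistant cells, 17.3 ± 3.75 and 23.2 ± 5.79 CPM in control cells) and APOA1, TTR and GPC3 were at or near 0. Over the whole marker list for liver cancer and hepatocytes, 3 of 9 tested genes were lower (33.3%) and 0 higher, beside 12.3% and 11.7% of all tested genes. For 6 of the 9 (66.7%) every resistant library was below every control library, beside 18.9% of all tested genes. The summed level of its 13 genes was 1770 to 2110 CPM in resistant and 1920 to 2390 CPM in control libraries. Most of that sum came from KRT8 and KRT18, so it says little of the hepatocyte genes. Summed markers of other cell types were 11.8 to 41.5 CPM in resistant and 14.9 to 37.8 CPM in control libraries for the 7 fibroblast genes, and 5.93 to 8.70 CPM in resistant and 3.95 to 8.51 CPM in control libraries for the 5 leukocyte genes. For the 4 endothelial genes they were 40.6 to 130 CPM in resistant and 50.2 to 68.2 CPM in control libraries. Resistant replicate 3 stood apart, with 26.2 CPM of VWF and 19.2 CPM of CDH5, while the other 5 libraries had 0 to 1.76 CPM and 0 to 3.09 CPM. It also had 13.9 CPM of the fibroblast gene COL1A2, against 0 to 4.11 CPM in the other 5 libraries. All 9 calls given below were also made without that library.

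Of the 46 genes, 44 passed the filter on low counts, and 8 of these were lower and 1 higher in resistant cells. The lower genes were ULK1, RB1CC1 and ATG13 of the initiation complex, BECN1, the membrane-growth genes WIPI2 and ATG2A, the cargo receptor NBR1, and TSC2. The higher gene was the cargo receptor SQSTM1. In bulk RNA a change in the share of cells that express a gene and a change in its RNA per cell cannot be told apart. Of all genes tested 24.1% were called, 12.3% lower and 11.7% higher. The shares among the 44 were 18.2% lower and 2.27% higher, 20.5% in all. The share lower is thus above and the share higher below that of all genes, and the share called in all is close to it. The median log2FC was -0.03 over the 44 and -0.01 over all tested genes. Groups did not overlap for 11 members with resistant libraries below and 1 above, 25.0% and 2.27% of the 44, against 18.9% and 19.2% of all tested genes. Of these 12 members, 3 were not called (ULK2, ATG4C and TFE3).

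**Figure D1:**
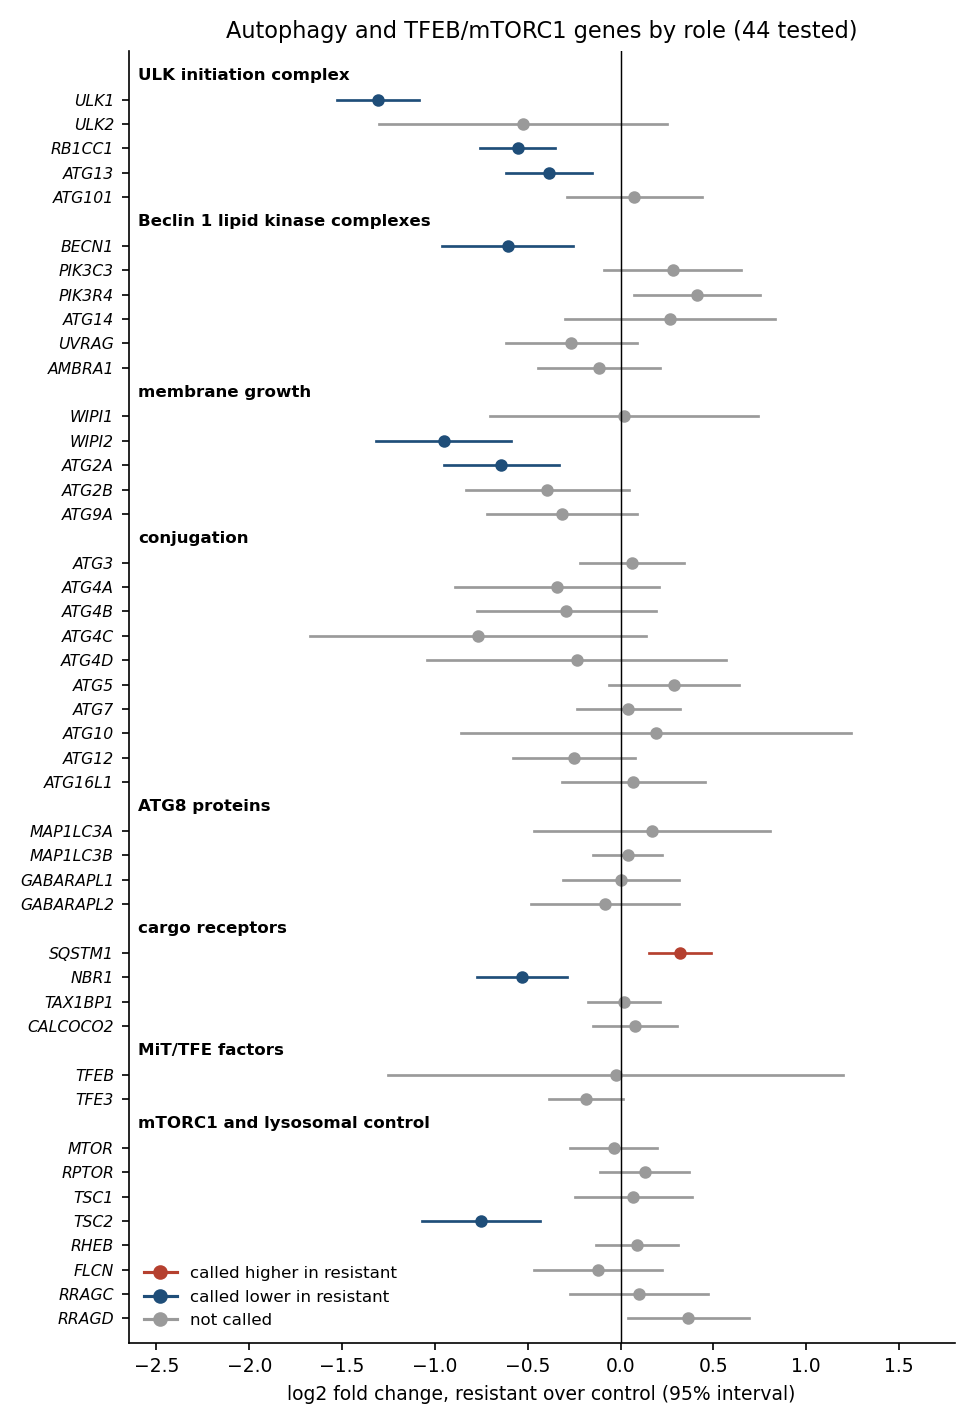
Log2 fold change, resistant over control, of the 44 tested members, with 95% intervals from edgeR's quasi-likelihood fit, grouped by role (n = 3 libraries per group). The 9 called genes are coloured: ULK1 lies farthest from 0 at -1.31, SQSTM1 is the single gene called higher at 0.32, and no conjugation or ATG8 gene is called.

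The clearest difference in the set was in the kinase that starts autophagy. ULK1, which phosphorylates the other initiation proteins, had 82.0, 83.9 and 86.5 CPM in the resistant libraries, against 220.1, 213 and 192 CPM in the control libraries. The groups lay far apart, and the 3 resistant libraries were nearly equal. The ratio of the means was 0.403, with a log2FC of -1.31 (SE 0.11, edgeR adjusted p = 5.24e-12). RB1CC1, also called FIP200, is the scaffold of the complex. It had 215, 185 and 219 CPM in resistant libraries, against 283, 311 and 313 CPM in control libraries, again with no overlap (log2FC -0.56, SE 0.10, edgeR adjusted p = 4.13e-05). ATG13, the adaptor that mTORC1 and ULK1 both phosphorylate, had 134, 103 and 137 CPM in resistant libraries, against 153, 166 and 168 CPM in control libraries. Every resistant value was below every control value, though the nearest were close (log2FC -0.39, SE 0.11, edgeR adjusted p = 0.0108). ATG13 was no longer called when control replicate 3 (adjusted p = 0.066) or resistant replicate 2 (0.137) was left out, in a range of 0.00509 to 0.137 over 16 alternatives.

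The other members of the initiation complex were not called. ATG101, which stabilises ATG13, had 33.1 to 39.3 CPM in resistant and 31.4 to 36.5 CPM in control libraries, with a log2FC of 0.07 and a 95% interval of -0.29 to 0.44. ULK2, the paralogue of ULK1, was scarce in both groups. It had 5.41, 7.99 and 6.55 CPM in resistant libraries, against 8.23, 11.9 and 8.21 CPM in control libraries, and its interval of -1.30 to 0.25 includes a change of the size seen for ULK1's partners as well as none. The edgeR adjusted p of ULK2 was 0.349, on 86 counts over the resistant and 107 over the control libraries. In all, 3 of 5 members of this complex were lower and 0 higher, beside 12.3% and 11.7% of all tested genes.

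**Figure D2:**
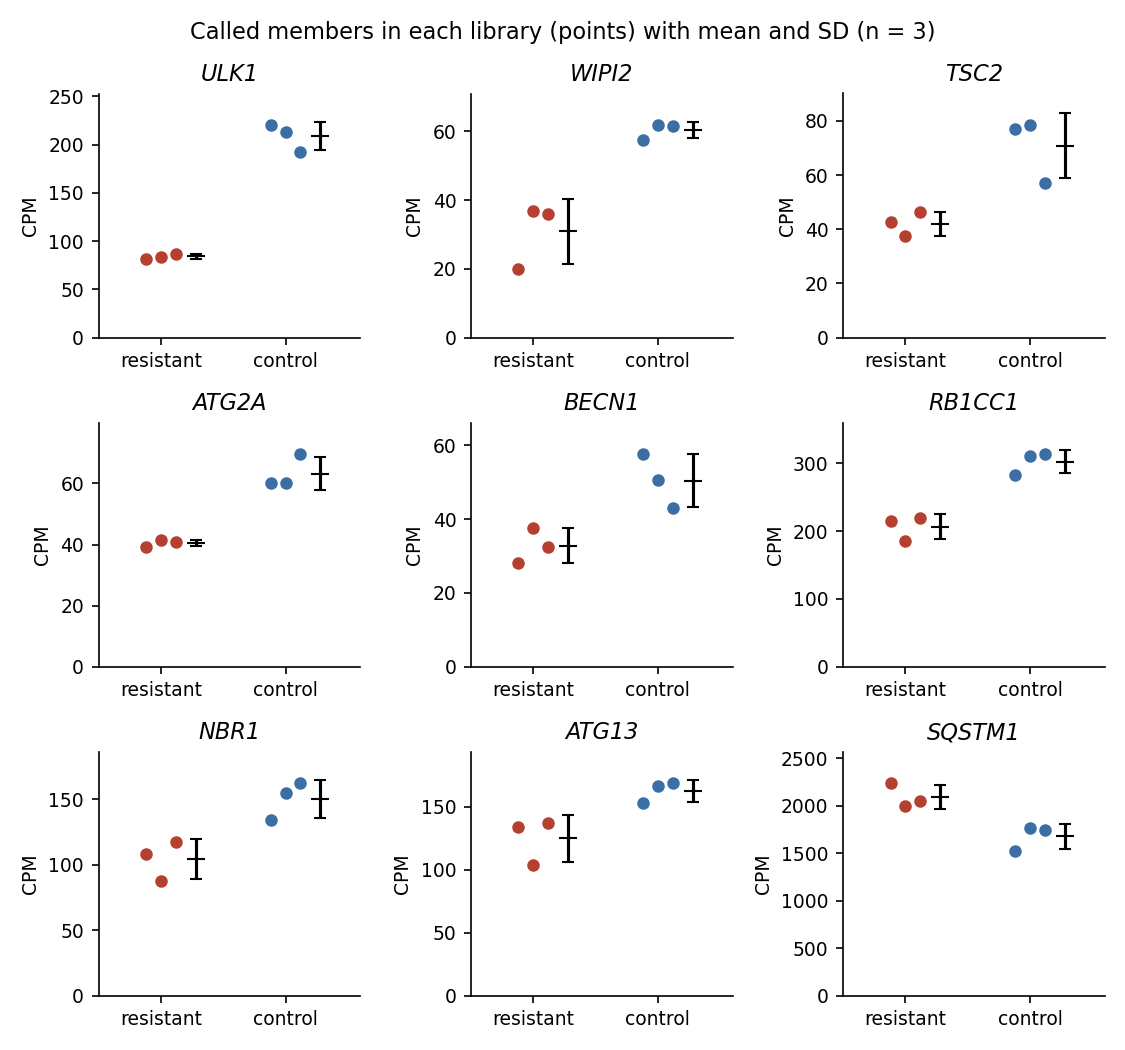
CPM of the 9 called members in each library (points), with the mean and SD beside them (n = 3 resistant, n = 3 control), each panel with its own axis from 0. In every panel the groups do not overlap: resistant points lie below control points for 8 genes and above them for SQSTM1, where the 3 resistant libraries have 1996 to 2237 CPM.

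Among the Beclin 1 complexes, BECN1 alone was called, and the catalytic and regulatory kinase subunits were not. BECN1, the scaffold that BCL2 proteins can bind, had 28.2, 37.6 and 32.5 CPM in resistant libraries, against 57.6, 50.7 and 43.1 CPM in control libraries. The groups did not overlap, with a log2FC of -0.61 (SE 0.17, edgeR adjusted p = 0.00817). That call was lost without resistant replicate 1 (adjusted p = 0.0537), and with control replicate 1 and resistant replicate 3 both left out (0.104), in a range of 0.00629 to 0.104 over the alternatives. Of its exon length in GENCODE 29, 17.1% overlaps exons of CNTD1 and PSME3 on the opposite strand. Whether counting used strand is not stated in the sources used here. PSME3 had 278 CPM in resistant and 219 CPM in control cells, and CNTD1 0.273 and 0.810 CPM. Their part in the BECN1 counts was not tested. The lipid kinase PIK3C3 (VPS34) had a log2FC of 0.28 (95% interval -0.09 to 0.65) and its regulatory subunit PIK3R4 one of 0.41 (0.07 to 0.75; edgeR adjusted p = 0.0706). PIK3R4 had 44.9, 63.5 and 55.6 CPM in resistant libraries, against 50.4, 39.0 and 36.4 CPM in control libraries, so the groups overlapped through control replicate 1. Without that library PIK3R4 was called higher (adjusted p = 0.0275), and over the alternatives its adjusted p ran from 0.027 to 0.298. ATG14, which directs the complex to forming autophagosomes, UVRAG, which directs it to endosomes, and AMBRA1, a Beclin 1 partner, had log2FC of 0.27, -0.27 and -0.12, and none was called.

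In the group that acts on the growing membrane, WIPI2 and ATG2A were lower, and their paralogues among the members, WIPI1 and ATG2B, were not called. A WIPI paralogue outside the members, WDR45 (WIPI4), was called higher and is given below. WIPI2, which recruits ATG16L1 to the membrane, had 20.03, 36.9 and 36.0 CPM in resistant libraries, against 57.6, 61.8 and 61.6 CPM in control libraries. Resistant replicate 1 was the lowest, but the other resistant libraries were also well below control (log2FC -0.95, SE 0.18, edgeR adjusted p = 9.68e-05). ATG2A, a lipid transfer protein, had 39.2, 41.4 and 40.9 CPM in resistant libraries, against 60.2, 60.1 and 69.5 CPM in control libraries (log2FC -0.64, SE 0.15, edgeR adjusted p = 0.00162). WIPI1 had 6.58 to 11.7 CPM in resistant and 8.85 to 10.3 CPM in control libraries (log2FC 0.02, 95% interval -0.70 to 0.74). ATG2B varied with the library, with 18.7, 28.9 and 38.5 CPM in resistant cells, against 24.7, 45.0 and 41.4 CPM in control cells. Its log2FC of -0.39 (edgeR adjusted p = 0.194) became -0.66 and was called without resistant replicate 3 (adjusted p = 0.0435, range 0.0109 to 0.669 over the alternatives). The membrane protein ATG9A, a lipid scramblase, had a log2FC of -0.32 (95% interval -0.72 to 0.09).

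None of the 10 conjugation genes was called in edgeR's test, and their median log2FC was -0.10. These are the E1-like enzyme ATG7, the E2-like enzymes ATG3 and ATG10, the ATG12, ATG5 and ATG16L1 proteins that form the ligase, and the ATG4 proteases that process and release ATG8 proteins. ATG7 and ATG3 were measured most closely, with 66.1 to 81.6 and 67.2 to 71.6 CPM in resistant libraries, against 66.3 to 74.2 and 62.1 to 73.3 CPM in control libraries. Their 95% intervals for the log2FC were -0.23 to 0.32 and -0.22 to 0.34. Exons of VGLL4 overlap 18.1% of those of ATG7, and VGLL4 itself had 64.2 CPM in resistant and 104.9 CPM in control cells. ATG5 had a log2FC of 0.29 (-0.06 to 0.64), ATG12 of -0.25 (-0.58 to 0.08) and ATG16L1 of 0.07 (-0.32 to 0.45). The 4 protease genes had log2FC from -0.24 for ATG4D to -0.77 for ATG4C, and none passed the test. That of ATG4D was 0.22 without control replicate 2. ATG4C had 4.60, 5.64 and 4.50 CPM in resistant libraries, against 11.3, 5.84 and 8.80 CPM in control libraries, a difference at which the test had little depth (edgeR adjusted p = 0.226, interval -1.67 to 0.14).

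The ATG8 genes, whose proteins are the usual markers of autophagosomes, showed no called difference. MAP1LC3B had 456, 418 and 390.1 CPM in resistant libraries, against 387, 428 and 413 CPM in control libraries. The groups overlapped, and the 95% interval of its log2FC was -0.15 to 0.22. Reads of MAP1LC3B can be shared with its near-identical copy MAP1LC3B2, which was counted apart at 14.6 ± 2.60 CPM in resistant and 12.05 ± 4.52 CPM in control cells (SD, n = 3 each). MAP1LC3A had 11.4, 12.2 and 14.1 CPM in resistant libraries, against 7.71, 13.9 and 10.9 CPM in control libraries (log2FC 0.17, interval -0.46 to 0.80). GABARAPL1 and GABARAPL2 had 52.2 to 65.5 and 25.4 to 31.9 CPM in resistant libraries, against 45.8 to 64.5 and 25.7 to 34.1 CPM in control libraries. GABARAP, a gene used by most cells, was listed with 0, 4 and 2 counts in resistant libraries and 0 in all 3 control libraries, and was not tested. A count of 0 over the control libraries allows up to 0.281 CPM (3 counts of 10659982, counting error only), or 0.563 CPM if both mates of a pair were counted. In GENCODE 29 the protein-coding gene AC120057.2 on the same strand and the unconfirmed transcript AC120057.3 on the opposite strand, neither of them in the count table, overlap 30.5% and 25.2% of its exon length, and no gene of the table does. Their part in the low count was not tested.

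Of the 4 cargo receptors, SQSTM1 was higher, NBR1 was lower, and the other two were not called. SQSTM1, which links ubiquitinated cargo to LC3, had 2237, 1996 and 2056 CPM in resistant libraries, against 1523, 1770 and 1743 CPM in control libraries. All resistant values were higher, by 1.25-fold in the means, with a log2FC of 0.32 (SE 0.08, edgeR adjusted p = 0.00319). With control replicate 1 and resistant replicate 3 both left out the log2FC was 0.28 and the call was lost (adjusted p = 0.075, range 0.000614 to 0.075 over the alternatives). NBR1, a receptor with a similar domain plan, had 108, 87.7 and 117 CPM in resistant libraries, against 134, 155 and 162 CPM in control libraries. It was lower without overlap (log2FC -0.53, SE 0.12, edgeR adjusted p = 0.000882). TAX1BP1 and CALCOCO2, receptors known from the clearance of bacteria and mitochondria, had log2FC of 0.02 (95% interval -0.17 to 0.21) and 0.08 (-0.15 to 0.31).

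The transcription factors that drive lysosomal and autophagy genes were not called. TFE3 was the abundant member of the family, with 203, 227 and 224 CPM in resistant libraries, against 271, 233 and 244 CPM in control libraries. Its groups did not overlap, but the log2FC of -0.19 did not pass (SE 0.10, edgeR adjusted p = 0.181). TFEB had 2.98, 3.997 and 2.25 CPM in resistant libraries, against 4.11, 3.39 and 2.05 CPM in control libraries, on 39 counts in all resistant and 33 in all control libraries. At that depth the 95% interval of its log2FC was wide, -1.25 to 1.20. MITF, known best from melanocytes, had 0, 6 and 1 counts in resistant libraries, against 8, 6 and 6 counts in control libraries. It fell below the filter, and without a filter its log2FC was -1.98 (SE 1.34, edgeR adjusted p = 0.401).

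In the mTORC1 group TSC2 was lower and the other 7 genes were not called. TSC2, the GTPase-activating subunit that switches RHEB off, had 42.5, 37.4 and 46.2 CPM in resistant libraries, against 77.1, 78.3 and 57.2 CPM in control libraries. The resistant libraries were all lower, at 0.593 of the control mean (log2FC -0.75, SE 0.16, edgeR adjusted p = 0.000369). PKD1 and NTHL1, on the opposite strand, had 214 and 7.91 CPM in resistant cells, against 213 and 15.4 CPM in control cells. Their part in the counts was not tested, and their exons overlap 6.0% of those of TSC2. Its partner TSC1 had 52.8, 76.2 and 70.0 CPM in resistant libraries, against 61.2, 75.9 and 51.3 CPM in control libraries, and the groups overlapped (log2FC 0.07, interval -0.25 to 0.39). The kinase MTOR had 102, 122 and 117 CPM in resistant libraries, against 114, 116 and 119 CPM in control libraries (log2FC -0.04, interval -0.27 to 0.20). Its substrate-binding partner RPTOR had 127, 105 and 122 CPM in resistant libraries, against 109.5, 117 and 96.2 CPM in control libraries (log2FC 0.13, interval -0.11 to 0.37). RHEB, the GTPase that activates mTORC1, FLCN, which acts on RAGC and RAGD at the lysosome, and RRAGC, which encodes RAGC, had log2FC of 0.09, -0.12 and 0.10. RRAGD, a TFEB target in other tissues, had 74.4, 63.0 and 64.6 CPM in resistant libraries, against 52.4, 64.6 and 38.1 CPM in control libraries. RRAGD was not called (log2FC 0.37, edgeR adjusted p = 0.0956), but was without control replicate 2 (0.0186, range 0.0186 to 0.469 over the alternatives).

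Levels of different genes were compared per kilobase of summed exon length, in CPM per kb. SQSTM1 was the most abundant of the 46, at 274 in resistant and 219 in control cells, followed by MAP1LC3B (79.3 in resistant, 77.0 in control) and TFE3 (50.9 in resistant, 58.2 in control). At the low end TFEB had 0.544 in resistant and 0.564 in control cells, and MITF 0.0750 in resistant and 0.325 in control cells. ULK1 stood at 11.1 in resistant and 27.4 in control cells. On this scale ULK1 in control cells was above ATG13 (23.2), and in resistant cells below it (17.8).

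**Figure D3:**
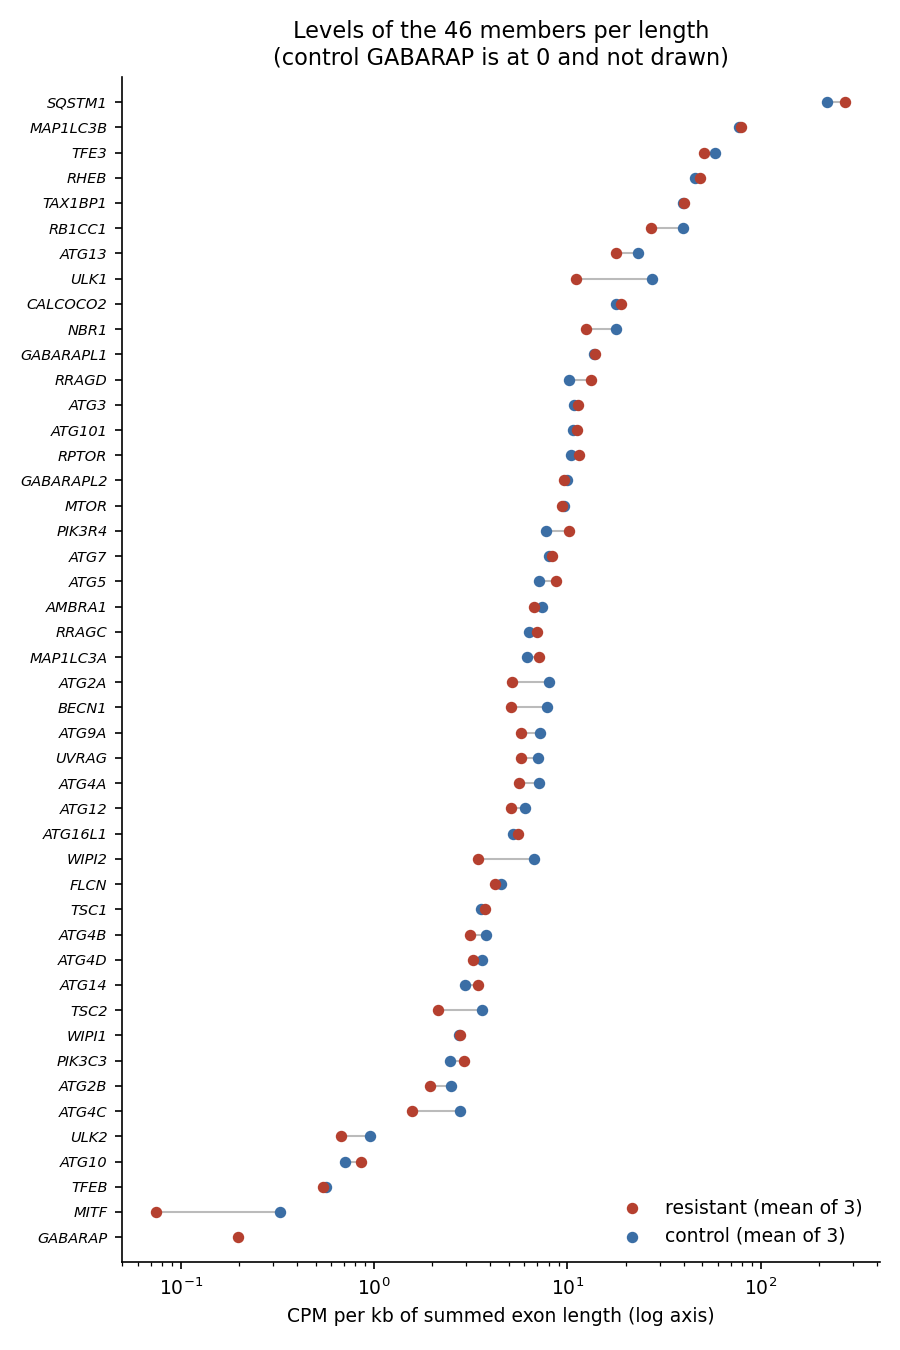
Mean level of each of the 46 members in CPM per kb of summed exon length, on a log axis, in resistant and control cells (means of 3 libraries each), ordered by level. SQSTM1 is highest at 274 in resistant and 219 in control cells, ULK1 shows a wide gap between groups among the abundant genes, and TFEB lies near 0.55 in both groups.

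Ratios of 2 genes within a library do not depend on library scaling, and 11 pairs were compared. With 3 against 3 libraries the exact two-sided permutation test cannot go below 0.1, so none can pass 0.05, and after adjustment over the 11 pairs the lowest p was 0.55. Groups did not overlap for 2 of the 11. Each of these holds a gene called above from the same counts, ULK1 or TSC2, so they are not separate support for those calls. The share of other gene pairs without overlap was not computed. The log2 count ratio of ULK1 to ULK2 was 3.66 ± 0.26 in resistant and 4.46 ± 0.28 in control cells (SD, n = 3 each; exact p = 0.1), that is, 12.6 and 22.0 counts of ULK1 per count of ULK2. The log2 ratio of TSC1 to TSC2 was 0.64 ± 0.36 in resistant and -0.18 ± 0.14 in control cells (exact p = 0.1). For WIPI1 to WIPI2 it was -1.69 ± 0.74 in resistant and -2.66 ± 0.18 in control cells, and resistant replicate 2 fell within the control range (exact p = 0.2). TFEB to MITF rested on few counts, with 2.96 ± 1.55 in resistant and 0.57 ± 0.82 in control cells (exact p = 0.2). The ratios of MAP1LC3B to MAP1LC3A, GABARAPL1 to GABARAPL2, MTOR to RPTOR, ATG4B to ATG4D, RRAGC to RRAGD, ATG2A to ATG2B and TFEB to TFE3 differed by 0.27 or less on the log2 scale, with overlap and exact p of 0.4 to 0.8.

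**Figure D4:**
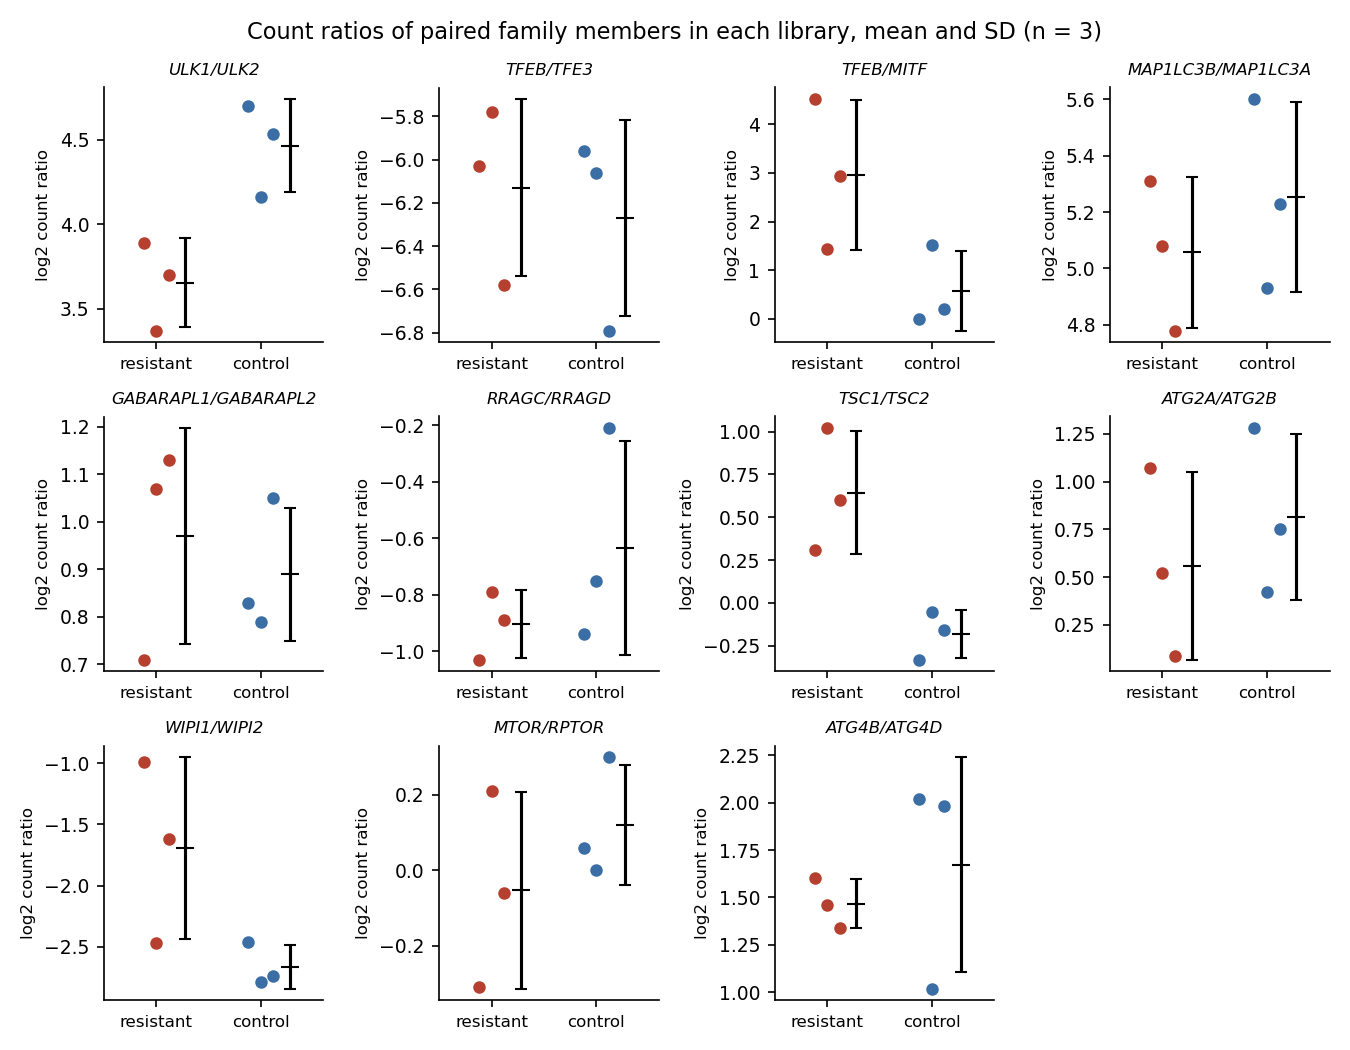
Log2 ratio of the counts of 2 members in each library (points), with mean and SD (n = 3 resistant, n = 3 control), in 11 panels with their own axes. The groups separate for ULK1/ULK2, lower in resistant libraries, and for TSC1/TSC2, higher in resistant libraries, and overlap in the other panels.

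Other genes of the pathway were counted from lists, each to be read beside the 24.1% of all tested genes that were called. In the nutrient-sensing branch above mTORC1, 1 of 10 Ragulator, Rag and FLCN-partner genes was higher and 0 lower. It was RRAGA, which encodes the Rag GTPase that pairs with RAGC or RAGD, at 30.0 ± 3.49 CPM in resistant and 18.1 ± 3.99 CPM in control cells (SD, n = 3 each; log2FC 0.76, SE 0.23, edgeR adjusted p = 0.0119). Its paralogue RRAGB encodes a closely similar protein, and whether any reads were shared between these genes was not tested. Of 15 GATOR, KICSTOR and sensor genes, 1 was higher and 2 lower, below that share. The leucine sensor and stress gene SESN2 had a log2FC of -0.99 (edgeR adjusted p = 9.97e-08), NPRL3 of GATOR1 had -0.39 (0.0393) and SEH1L, shared by GATOR2 and the nuclear pore, had 0.37 (0.0305) with overlapping groups. Of 12 other mTOR complex genes and substrates, RICTOR, the defining subunit of mTORC2, was lower (105 ± 8.53 CPM in resistant and 157 ± 7.20 CPM in control cells, log2FC -0.58, edgeR adjusted p = 0.000137) and 0 were higher. Of 8 tested AMPK genes, the subunit PRKAB2 was lower (log2FC -0.55, edgeR adjusted p = 0.00503) and 0 were higher.

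Downstream, 1 of 16 genes for fusion with the lysosome was higher and 0 lower. It was VPS18, a core subunit of the HOPS tether (log2FC 0.57, SE 0.15, edgeR adjusted p = 0.00444). Of 15 further selective receptors 3 were higher and 1 lower, 26.7% and so near the share of all genes. The ubiquitin-binding receptor OPTN had 120 ± 10.5 CPM in resistant and 79.2 ± 21.0 CPM in control cells (SD, n = 3 each; log2FC 0.56, edgeR adjusted p = 0.00231), the mitophagy receptor PHB2 had a log2FC of 0.41 (0.00264), the ubiquitin-binding adaptor TOLLIP of 0.48 (0.0031) and the ER-phagy receptor TEX264 of -0.66 (0.0243). Of 11 tested genes among other core factors and paralogues, WDR45 (WIPI4) was higher at 0.31 (edgeR adjusted p = 0.0375), and the scramblases TMEM41B (-0.57, 0.0023) and VMP1 (-0.25, 0.0356) were lower. Of 21 lysosomal genes known as TFEB targets 1 was higher and 5 lower, 4.76% and 23.8%, beside 11.7% and 12.3% of all tested genes, with a median log2FC of -0.12. The gene that was higher was PSAP, the saposin precursor (log2FC 0.53, edgeR adjusted p = 4.4e-06). Among other transcriptional regulators of autophagy genes, 1 of 7 tested was higher and 2 lower. The transcription factor FOXO3 had a log2FC of 0.34 (edgeR adjusted p = 0.03) and the nuclear receptor NR1H4 one of -1.45 (0.0472).

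Promoter windows, from 250 bases before to 50 after the transcript start, were found for 41 of the 46 members in RefSeq on GRCh38.p14. TFEB and its relatives bind the E-box CACGTG, which reads the same on both strands. It was found in 4 of the 41 (9.76%), beside 10.3% of the windows of 8679 tested genes and 8.88% of 15843 protein-coding genes. The longer form TCACGTG, which contains that E-box, searched on both strands, was found in the same number, 4 of 41, beside 6.13% and 4.78%. The 4 members were TSC2, RRAGC, ATG3 and ATG14, of which TSC2 was called. The windows of ULK1 and TSC2, called lower, and of SQSTM1, called higher, are shown because ULK1 had the largest change among the 44 tested members, TSC2 was the called gene of mTORC1 control, and SQSTM1 was the member called higher. Capitals mark the E-box, which starts 114 bases before the RefSeq start used for TSC2 and is not in the other 2 windows. Other transcript starts of these genes were not searched, so its absence holds for the printed windows only. A match is a description of the letters and not a binding site.
ULK1 (chr12:131894372-131894671, plus strand): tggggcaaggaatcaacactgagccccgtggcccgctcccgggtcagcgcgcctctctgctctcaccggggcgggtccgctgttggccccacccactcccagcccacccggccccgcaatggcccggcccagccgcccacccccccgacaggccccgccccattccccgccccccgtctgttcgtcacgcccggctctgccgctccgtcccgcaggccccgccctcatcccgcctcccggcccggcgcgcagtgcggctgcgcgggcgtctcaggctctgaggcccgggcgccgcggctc
TSC2 (chr16:2047735-2048034, plus strand): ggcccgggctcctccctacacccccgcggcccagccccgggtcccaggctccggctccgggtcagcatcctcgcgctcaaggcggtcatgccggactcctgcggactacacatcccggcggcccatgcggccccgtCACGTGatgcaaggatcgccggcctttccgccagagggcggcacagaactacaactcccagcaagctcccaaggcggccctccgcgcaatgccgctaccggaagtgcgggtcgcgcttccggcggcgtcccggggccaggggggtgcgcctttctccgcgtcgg
SQSTM1 (chr5:179806143-179806442, plus strand): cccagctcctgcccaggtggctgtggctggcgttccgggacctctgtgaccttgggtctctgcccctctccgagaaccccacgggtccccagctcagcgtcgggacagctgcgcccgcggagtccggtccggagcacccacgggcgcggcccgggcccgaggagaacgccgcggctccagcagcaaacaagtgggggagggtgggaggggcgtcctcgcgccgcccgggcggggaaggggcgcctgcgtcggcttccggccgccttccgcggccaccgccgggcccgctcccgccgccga

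By GENCODE 29 on GRCh38, whose build may differ from that behind the counts, ULK1 lies on the plus strand of chromosome 12 from 131894651 to 131923167, TSC2 on the plus strand of chromosome 16 from 2047465 to 2089487, and SQSTM1 on the plus strand of chromosome 5 from 179806398 to 179838078. The TSC2 span begins before the promoter window above (2047735 to 2048034), so by GENCODE 29 that window and its E-box lie within the gene. WIPI2 is on chromosome 7 (5190188 to 5233826), BECN1 on chromosome 17 (42810134 to 42833350) and NBR1 on the same chromosome (43170481 to 43211689). ATG13 and ATG2A are both on chromosome 11, at 46617527 to 46674818 and 64894546 to 64917248, and RB1CC1 is on chromosome 8 (52622456 to 52745843). The called genes thus came from 7 chromosomes. Exons of other counted genes, matched by symbol, overlap those of 15 of the 46 members, by up to 24.3% of the exon length (WIPI1). ULK1, RB1CC1, WIPI2, ATG2A and NBR1 had no such overlap. Genes whose symbols are not in the count table overlap further exons. Among them, MRNIP on the opposite strand overlaps 20.7% of the exon length of SQSTM1. On the same strand, AC068946.2 overlaps 38.8% of that of ATG9A. Their part in the counts was not tested.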

How the data were processed

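RNA was sequenced from 3 resistant and 3 control MHCC97H libraries. Per the labels' protocols, RNA was extracted with Trizol and a column kit and made into libraries by EasyRNA-seq. Trimmomatic, HISAT2 and Bowtie2 are named in the submitters' processing notes. The counter, build, annotation and strand use are not stated in the sources used here. The deposited counts are whole numbers per gene symbol with no normalization, and the table's 6 columns equalled the 6 single-library files. Of the 19202 symbols, 27 had become dates and were renamed by Entrez ID. Among counts of 1 to 20, 81.8 to 88.5% were even, as counting both mates would give.

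Genes passing filterByExpr (10804) were scaled by TMM and tested with edgeR 4.0.16 (R 4.3.3), quasi-likelihood F test, group as the only term, Benjamini-Hochberg adjustment over all tested genes. The SE is the log2FC over the square root of F, and 95% intervals use the fit's degrees of freedom. The fit was also run on counts simulated from its own means and dispersions, with 200 genes changed. That run does not test the calls made on the real counts. Ratios used counts plus 0.5. Lengths and spans are from GENCODE 29. Figures used matplotlib 3.10.9.

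The members and lists were chosen with earlier results of these data known. By rule, library values were printed for called members and for TFEB, TFE3, MITF, MTOR, RPTOR, TSC1, TSC2, MAP1LC3A, MAP1LC3B and SQSTM1, and of each other list at most 3 called genes by smallest p. TEX264 and the library values of ULK2, PIK3R4, ATG2B, ATG4C, GABARAP and RRAGD were added after their values were seen. A few genes taken by the rule are not reported here. Alternatives were other scalings and filters, DESeq2 1.42.0, limma-voom (limma 3.58.1), a replicate block, an adjusted p of 0.01, halved counts and left-out libraries.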

Additional observations from a re-analysis of the deposited data

How the results depend on the processing

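Over 17 alternatives the members called lower numbered 7 to 9 (8 as reported), and 6 of the 9 called members (ULK1, RB1CC1, WIPI2, ATG2A, NBR1 and TSC2) were called in all 16 alternatives run on single genes. The calls of ATG13, BECN1 and SQSTM1 were lost in the settings given with them, and the cause was not tested. Members called higher numbered 2 in limma-voom and with halved counts (SQSTM1 with PIK3R4), and 0 with control replicate 1 and resistant replicate 3 both left out, against 1 as reported. Without 1 library at a time they numbered 1 to 2. At an adjusted p of 0.01, 1651 genes were called in all, 800 higher and 851 lower, beside 1269 and 1332 at 0.05. Scaling by library totals moved the median log2FC of all genes from -0.006 to -0.028, and no scaling changed a member's call. Same-numbered libraries did not deviate together (correlations -0.015, 0.033 and -0.006, and 1 of 3 resistant libraries was closest to the control of its own number), so the numbers are not taken as pairs. With the replicate block 2518 genes were called, against 2601, with 8 members lower and 1 higher. Depth limits the genes with few counts (TFEB, MITF, GABARAP, ULK2, ATG10, ATG4C and ATG4D).

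The sign of the log2FC turned in 38 values of 17 members, of which 0 were called in either setting. Without 1 library at a time the log2FC ran from -0.241 to 0.015 for AMBRA1, -0.164 to 0.228 for WIPI1, -0.462 to 0.225 for ATG4D, -0.033 to 0.122 for ATG7, -0.029 to 0.256 for ATG16L1, -0.012 to 0.103 for MAP1LC3B, -0.099 to 0.113 for GABARAPL1 and -0.162 to 0.016 for GABARAPL2. The same ranges were -0.066 to 0.084 for TAX1BP1, -0.257 to 0.173 for TFEB, -0.082 to 0.040 for MTOR, -0.053 to 0.251 for TSC1, -0.006 to 0.182 for RHEB and -0.187 to 0.059 for FLCN, and -0.121 to 0.364 for the difference in the TFEB to TFE3 ratio. With control replicate 1 and resistant replicate 3 both left out the turned values were 0.045 for AMBRA1, -0.112 for WIPI1, -0.077 for ATG7, -0.121 for ATG10, -0.041 for ATG16L1, -0.075 for MAP1LC3A, -0.212 for GABARAPL1, -0.047 for CALCOCO2 and 0.334 for TFEB. GABARAPL1 was at -0.005 with upper-quartile factors, -0.011 in limma-voom and -0.010 with halved counts. With library totals WIPI1 was at -0.005, GABARAPL1 at -0.019 and TAX1BP1 at -0.002, and WIPI1 was at -0.030 with the replicate block. The cause was not tested.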
